A study of Mus musculus with 25 samples.

Results

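Hi-C contacts of fibroblasts were compared with those of embryonic stem (ES) cells in 4 of the 25 libraries of the series, 2 libraries of mouse embryonic fibroblasts (MEFs) and 2 of ES cells, all 4 prepared with the Arima Hi-C chemistry. The MEFs were reprogrammable cells taken from rtTA3-OKSM embryos at E13.5 and collected at passage 3. They were heterozygous for the Oct4-GFP reporter, for the OKSM cassette, which encodes the reprogramming factors, and for rtTA3, its doxycycline-dependent activator. Their labels name no doxycycline, and growth was in DMEM at low oxygen. The ES cells were V6.5, an established mouse ES line, grown in KO-DMEM under 2i, the inhibitor pair that holds ES cells in a naive state. Cells of both kinds were fixed with 1% formaldehyde. The labels do not say whether the replicates came from separate embryos or cultures, so every p-value below measures only the spread between these libraries, which may be technical. V6.5 is 1 line, and the ES result extends to no other line. An interaction is a pair of 10 kb bins of the same chromosome in the deposited high-confidence list of a cell type. All such pairs were used: 228083 in the MEF list and 318622 in the ES list, 419265 in all. Both lists held 127440 of them, the MEF list alone 100643 and the ES list alone 191182.

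Hi-C cuts cross-linked chromatin, ligates ends held near each other, and counts the ligated pairs by sequencing. Contact frequency falls steeply with distance along the chromosome. Above that decline stand loops and domains, many formed when the cohesin complex extrudes DNA until it meets bound CTCF, and contacts between promoters and enhancers or between regions silenced by Polycomb. ES chromatin is known for long contacts between Polycomb-bound developmental genes, and differentiation rewires many gene contacts.

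The listed counts summed to 5576165 for MEF replicate 1, 5635999 for MEF replicate 2, 8525641 for ES replicate 1 and 10015967 for ES replicate 2. The interactions of both lists held 3391276 and 3422734 counts in MEFs and 4057479 and 4833461 in ES cells, with median counts of 24 and 24 in MEFs and 30 and 36 in ES cells. Raw counts at an equal contact frequency are therefore higher in the ES libraries. A contact count also rises with the number of copies of a locus in the cells, and copies and contact frequency cannot be told apart here. Over autosomal interactions with 80 or more counts, the MEF libraries differed little more than counting noise allows (chi-square of 1.03 per degree of freedom, p = 0.00134) and the ES libraries more (1.39 per degree of freedom, and 1.13 without chromosomes 8 and 11). Over all 127440 common interactions the value was 0.886 in MEFs and 1.12 in ES cells, and 0.982 in ES cells without chromosomes 8 and 11. A value below 1 is less spread than counting noise gives. Its cause was not tested, and the replicate spread behind the p-values below may be understated. Hi-C does not measure gene activity, so the cell types of these 4 libraries could not be checked on marker genes. H3K27ac marks active promoters and enhancers, and its contact lists for the same cell types come from other libraries. In those lists the 28 bins with the starts of pluripotency factors took part in 4 listed H3K27ac contacts in MEFs and 260 in ES cells, and the 22 bins of fibroblast and mesenchymal genes in 135 in MEFs and 40 in ES cells.

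Promoter sequences of 5 genes are given because their bins end contacts described below: Col6a1 and Col6a2, whose bins contact each other in the MEF list alone, Tmem267, whose bin had more contacts in ES cells, Traf5, at an end of a contact that was lower in ES cells, and Foxo1, an end of 7 MEF-only contacts of 500 kb or more. Each run is the 250 bases before the gene start from RefSeq (build GRCm38.p6), 5′ to 3′ on the strand of the gene. Capitals mark matches on either strand to GGGNGNGG, a motif of the GC-box and CACCC type that KLF and SP factors bind. Overlapping matches run together.
Col6a2, chr10:76623631-76623880, minus strand: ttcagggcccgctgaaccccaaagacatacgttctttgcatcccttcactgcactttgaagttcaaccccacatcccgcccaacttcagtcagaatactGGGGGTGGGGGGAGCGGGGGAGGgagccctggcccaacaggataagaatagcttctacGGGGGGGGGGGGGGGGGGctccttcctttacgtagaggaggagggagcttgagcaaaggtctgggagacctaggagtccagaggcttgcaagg
Col6a1, chr10:76726045-76726294, minus strand: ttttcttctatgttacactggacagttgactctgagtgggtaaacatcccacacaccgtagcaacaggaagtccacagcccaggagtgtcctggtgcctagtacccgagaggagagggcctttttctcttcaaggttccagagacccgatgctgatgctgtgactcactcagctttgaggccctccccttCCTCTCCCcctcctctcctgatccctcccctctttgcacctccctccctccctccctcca
Tmem267, chr13:119487836-119488085, plus strand: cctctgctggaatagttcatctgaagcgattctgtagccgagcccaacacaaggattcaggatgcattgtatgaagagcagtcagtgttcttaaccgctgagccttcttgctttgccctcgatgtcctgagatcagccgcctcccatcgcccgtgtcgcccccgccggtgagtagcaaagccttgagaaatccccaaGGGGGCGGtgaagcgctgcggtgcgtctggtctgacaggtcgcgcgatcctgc
Traf5, chr1:192092600-192092849, minus strand: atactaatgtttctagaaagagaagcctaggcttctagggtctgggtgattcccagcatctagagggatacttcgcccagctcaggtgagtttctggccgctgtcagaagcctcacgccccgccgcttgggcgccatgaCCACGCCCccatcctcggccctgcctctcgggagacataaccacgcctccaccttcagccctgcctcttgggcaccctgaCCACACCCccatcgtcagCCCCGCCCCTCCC
Foxo1, chr3:52268087-52268336, plus strand: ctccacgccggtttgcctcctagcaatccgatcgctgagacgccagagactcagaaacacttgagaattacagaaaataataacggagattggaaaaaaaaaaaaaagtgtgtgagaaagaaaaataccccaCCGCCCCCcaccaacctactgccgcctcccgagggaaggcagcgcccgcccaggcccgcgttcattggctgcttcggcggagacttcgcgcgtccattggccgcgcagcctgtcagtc
Of the 11 windows extracted for named genes 9 hold a match, among them these 5, and those of Trpm8 and Smok2b hold none. Of the 32851 RefSeq promoter windows of this length 45.9% do. The match is a description of the letters, not a binding site. In the Col6a2 window part of it is a plain run of G.

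The lists differed in the distance that contacts span. The ES list held more interactions in each distance class below 500 kb, and the MEF list held far more in the classes from 500 kb on. Between 10 and 40 kb the ES list alone had 78239 interactions and the MEF list alone 56297. Between 50 and 90 kb the numbers were 74153 and 28405, and between 100 and 190 kb 33104 and 10281, so the ES excess grew from 1.39-fold to 2.61-fold and 3.22-fold. Between 200 and 490 kb the lists were near each other, with 5638 for ES alone and 5025 for MEF alone. In the class of 500 to 990 kb the order was the reverse, and the distance at which it turned was not resolved. The MEF list held 623 interactions and the ES list 80, and 590 stood in the MEF list alone against 47 in the ES list alone, 12.6-fold more. At 1000 kb or more, 45 MEF interactions stood beside 1 ES interaction. The longest contact of the MEF list alone spanned 1510 kb.

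**Figure D1:**
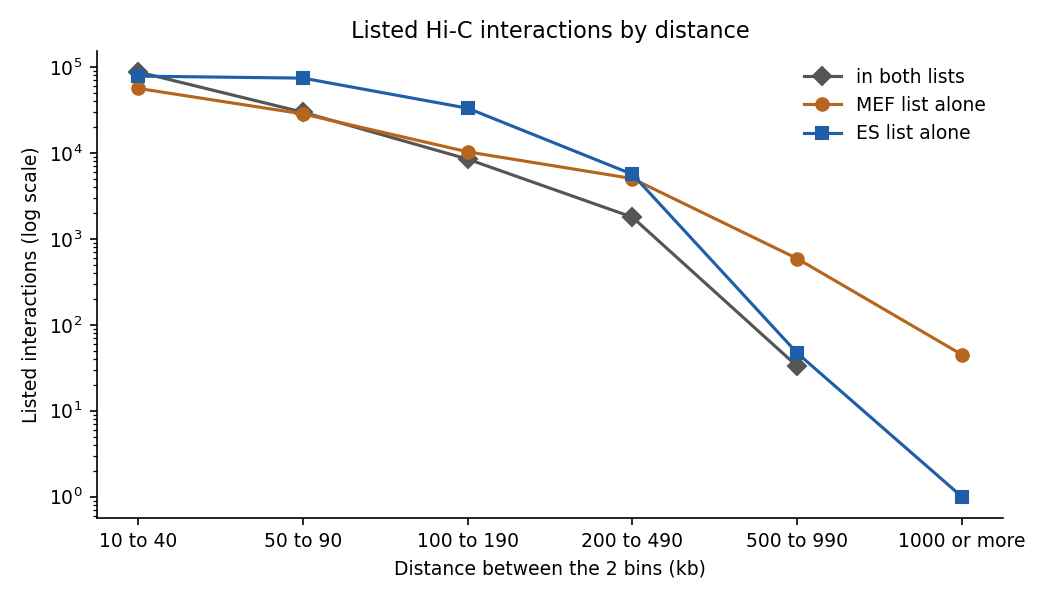
Number of listed Hi-C interactions (log scale) against the distance between their 2 bins, for interactions in both lists, in the MEF list alone and in the ES list alone; no interaction of 1000 kb or more was in both, so that point is not drawn. The ES-alone line lies above the MEF-alone line up to 490 kb, and the MEF-alone line lies above it from 500 kb, with 590 against 47 and 45 against 1.

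The MEF libraries had the fewer listed counts and yet the more contacts of 500 kb or more. An interaction enters a list only above the authors' cutoffs, and a missing one may have any value below them. With an added floor of at least 15 counts in each library, 201 MEF and 30 ES interactions of 500 kb or more were left, and with at least 20 counts 38 and 9. These floors do not make the cutoffs equal. The listed signal, of at least 15, is the count divided by a constant per chromosome and library. On every chromosome both ES constants were above both MEF constants, so MEF contacts could be listed at lower counts than ES contacts. Over the 17 autosomes other than 8 and 11 the constants ran from 0.684 to 0.823 in MEFs and from 0.741 to 1.07 in ES cells. On chromosome 11 the constants were 1.41 and 1.15 in ES cells and 0.787 and 0.806 in MEFs, so listed ES contacts there needed more than 15 counts. Without chromosome X, where the deposited scaling lets interactions in at lower counts, and with no added floor, the interactions of 500 kb or more numbered 623 and 55. Below 500 kb the deeper ES libraries had the longer list, and the part of depth in that excess was not tested. There is no replicate test of list membership, because each list was called from both libraries of a cell type together.

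The share of the MEF list that was also in the ES list fell with distance, and the share of the ES list that was also in the MEF list fell and then rose. Of the MEF interactions, 60.8% were also in the ES list between 10 and 40 kb (95% Wilson interval 60.6 to 61.1%), 51.1% between 50 and 90 kb (50.7 to 51.5%), 45.1% between 100 and 190 kb (44.4 to 45.8%), 26.2% between 200 and 490 kb (25.2 to 27.3%) and 5.30% between 500 and 990 kb (3.80 to 7.35%). Of the ES interactions, 52.8%, 28.6%, 20.3%, 24.1% and 41.2% in the same classes were also in the MEF list. None of the 45 MEF interactions of 1000 kb or more was in the ES list (95% Wilson interval 0 to 7.87%). These intervals cover counting error only, since amplified ligation products are not independent molecules. If each end may lie 1 bin away, 86.6% of the MEF interactions at 10 to 40 kb and 12.5% at 500 to 990 kb had an ES partner. With at least 15 counts in both libraries the MEF share did not fall between the first 2 classes, at 61.1% and 61.2%.

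Within the interactions of both lists, the ES libraries had the larger share of counts at 50 to 90 kb and the smaller share in the other 4 classes below 1000 kb. Contacts of 50 to 90 kb took 14.7% of the counts in each MEF library and 15.5% and 15.3% in the ES libraries. Contacts of 100 to 190 kb took 4.22% and 4.22% in MEFs and 3.99% and 3.94% in ES cells. Contacts of 200 to 490 kb took 0.918% and 0.938% in MEFs and 0.782% and 0.779% in ES cells, 0.841 times the MEF mean. Contacts of 500 to 990 kb took 0.0186% and 0.0168% in MEFs and 0.0143% and 0.0143% in ES cells. The shortest class, 10 to 40 kb, was nearly level, with 80.16% and 80.14% against 79.68% and 79.97%. The libraries of the 2 cell types did not overlap in any of the 5 classes. The exact two-sided permutation test gave 0.333 in each, the smallest p that 2 against 2 libraries can give. When every listed interaction of each list is counted, the class of 100 to 190 kb turns, at 5.153% and 5.155% in MEFs and 7.996% and 7.907% in ES cells, while contacts of 200 to 490 kb stay lower in ES cells, at 1.88% and 1.90% against 1.33% and 1.33%.

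**Figure D2:**
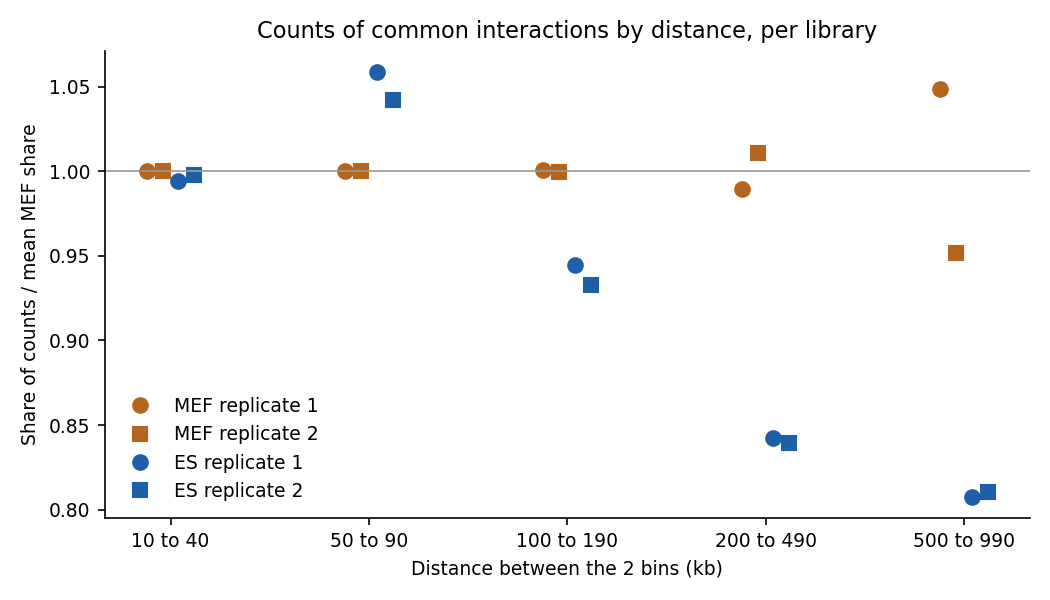
Share of the counts of common interactions in each distance class, per library, divided by the mean share of the 2 MEF libraries; circles are replicate 1 and squares replicate 2. Both ES libraries lie above both MEF libraries at 50 to 90 kb and below them at 100 kb or more, by 0.841 times at 200 to 490 kb and 0.809 times at 500 to 990 kb.

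ES replicate 1 stood apart on chromosomes 8 and 11. Chromosome 8 held 4.997% and 4.993% of the common counts in MEFs, 6.57% in ES replicate 1 and 5.38% in ES replicate 2. Chromosome 11 held 5.21% and 5.25% in MEFs, 6.97% in ES replicate 1 and 5.32% in ES replicate 2. Relative to the MEF mean, ES replicate 1 thus had 1.32 and 1.33 times the share on these chromosomes, and 0.933 to 1.01 times on the other 18. ES replicate 2 had 1.08 times the MEF share on chromosome 8 and 1.02 times on chromosome 11. The cause was not tested. The fits of interactions, of bins and of long contacts of bins are therefore also given without these 2 chromosomes or scaled chromosome by chromosome. The fit of long against short contacts was not run that way, and its calls lie on other chromosomes.

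**Figure D3:**
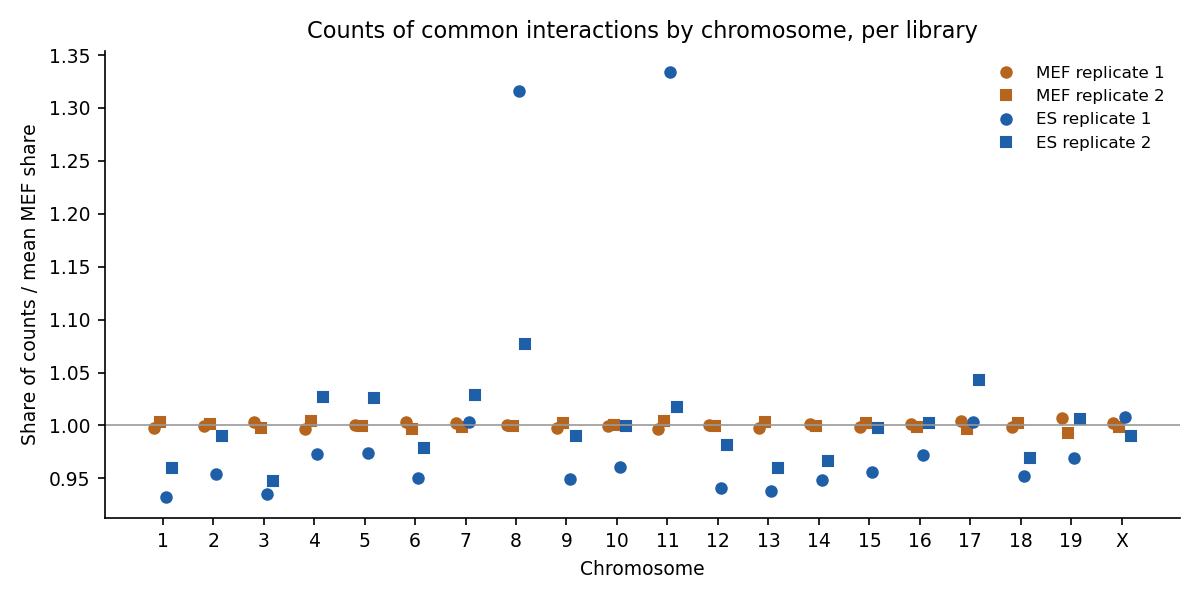
Share of the counts of common interactions on each chromosome, per library, divided by the mean share of the 2 MEF libraries; circles are replicate 1 and squares replicate 2. ES replicate 1 lies at 1.32 on chromosome 8 and 1.33 on chromosome 11, and between 0.933 and 1.01 elsewhere.

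To ask which single contacts changed in strength, the raw counts of interactions in both lists were tested with the quasi-likelihood test of edgeR, and p-values were adjusted by Benjamini-Hochberg over all 124204 that passed the filter on low counts. Calls were made at an adjusted p under 0.05. Contacts found in 1 list only cannot enter this test. It called 40 interactions, 0.0322% of those tested, of which 26 were higher (0.0209%) and 14 lower (0.0113%) in ES cells. The 26 lay at 9 loci and 11 of them at a single locus, with a median distance of 30 kb, and the 14 lay at 14 loci with a median distance of 125 kb. Of those lower in ES cells, 64.3% spanned 100 kb or more, against 15.4% of those higher and 7.89% of all tested. With offsets that level each distance step, 6 of the 9 lower calls of 100 kb or more were lost, those at Polr1a, from Rd3 to Traf5 and at Pde10a were kept, and lower calls numbered 9 in all. In these offsets all contacts of 300 kb or more shared 1 step. The raw counts of both ES libraries lay above both MEF libraries in all 26, and below both in all 14 although the ES libraries were deeper. By class, 0.0174% of the tested interactions were called higher and 0.00232% lower at 10 to 40 kb, 0.0248% and 0.0106% at 50 to 90 kb, 0.0124% and 0.062% at 100 to 190 kb, and 0.176% and 0.235% at 200 to 490 kb, with none of the 30 at 500 to 990 kb. Over all tested interactions the median log2 change was -0.13 at 10 kb. By class it fell from 0.07 at 50 to 90 kb to -0.08 at 100 to 190 kb and -0.23 at 200 to 490 kb.

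**Figure D4:**
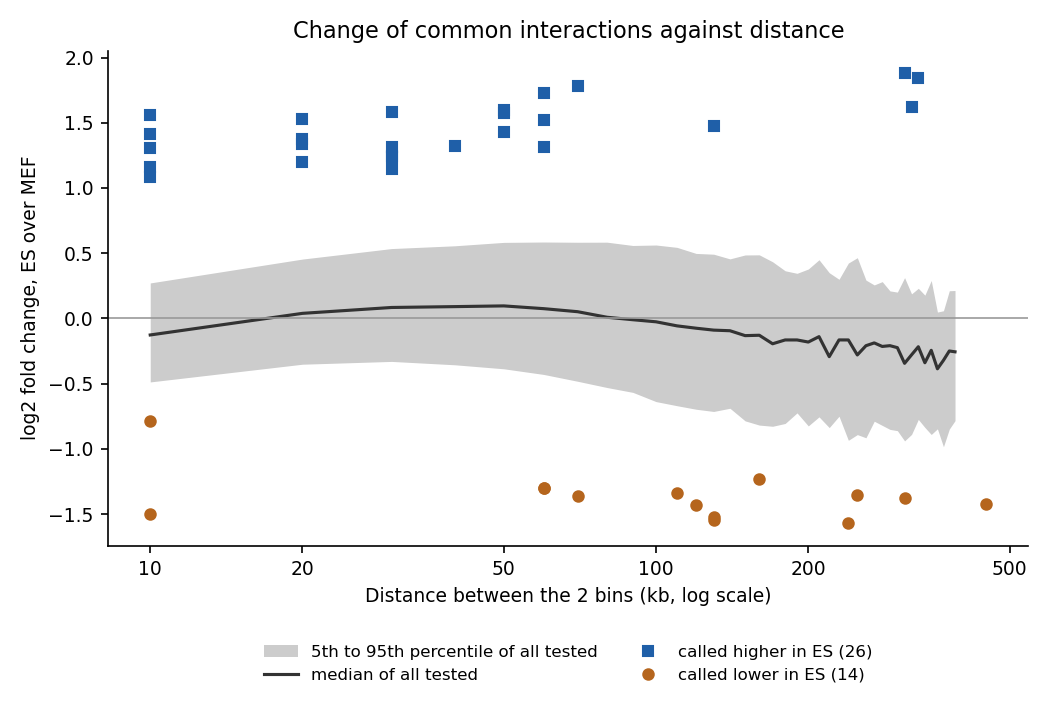
Log2 fold change (ES over MEF, fitted by edgeR) against the distance between the 2 bins (log scale) for interactions in both lists; the grey band covers the 5th to 95th percentile of all tested at each distance with at least 20 interactions, the line is their median, squares are the 26 called higher and circles the 14 called lower in ES cells. Most squares lie at or below 70 kb, most circles above it, and the median line lies below 0 at 10 kb and from 90 kb on.

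How many passed depended on the libraries and the tool. DESeq2 called 0 of the same interactions, with 669 at an unadjusted p under 0.05, where edgeR had 7542. Leaving out MEF replicate 1 left 3 calls, leaving out MEF replicate 2 left 6, and leaving out ES replicate 2 gave 113 (99 higher and 14 lower). Without ES replicate 1 there were 49, of which 21 were higher and 28 lower, so the excess of higher calls turned, and 23 of the 40 were among them. Without chromosomes 8 and 11 there were 30 higher and 26 lower, and 38 of the 40 were among them. With the authors' chromosome scaling 49 were higher and 12 lower.

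The densest locus of contacts higher in ES cells was chr16:35470001-35560000, from the body of Pdia5, which encodes a protein disulfide isomerase of the endoplasmic reticulum, to Sema5b, which encodes a semaphorin of axon guidance. All 11 called interactions there rose, by 1.24 to 1.78 on the log2 scale over distances of 10 to 70 kb. The contact between the bin at 35480001 in Pdia5 and the bin at 35550001 in Sema5b had 12 and 19 counts in MEFs and 71 and 69 in ES cells (log2 change 1.78 ± 0.27 SE, adjusted p = 0.000105 by edgeR). The contact between the bins holding the 2 gene starts, 35490001 and 35540001, had 14 and 16 counts in MEFs and 54 and 52 in ES cells (log2 change 1.43 ± 0.29 SE, adjusted p = 0.0146). Neither pair of groups overlapped. The contact of the gene starts was also listed for H3K27ac in both cell types, with 14 and 29 counts in MEFs and 29 and 32 in ES cells.

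Also higher in ES cells were contacts in which 3 neighbouring bins at Smok2a and Smok2b, paralogous testis genes that encode sperm motility kinases, met a bin 310 to 330 kb away on chr17:13210001-13550000. From the Smok2b bin the counts were 14 and 16 in MEFs and 77 and 68 in ES cells (log2 change 1.88 ± 0.27 SE, adjusted p = 4.07e-05). From the Smok2a bin, at 320 kb, they were 11 and 15 against 56 and 49 (log2 change 1.62 ± 0.30 SE, adjusted p = 0.00381), and from the neighbouring bin, at 330 kb, 15 and 13 against 77 and 55 (log2 change 1.85 ± 0.28 SE, adjusted p = 0.000159). In each, both ES libraries were more than 3 times as high as either MEF library. Paralogs share sequence, and how the reads of Smok2a and Smok2b were told apart is not given in the sources used here. None of the 3 contacts was in an H3K27ac list.

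At chr13:119480001-119620000 the contact between the start and the far end of Tmem267, a transmembrane protein gene, had 29 and 33 counts in MEFs and 119 and 106 in ES cells at 130 kb (log2 change 1.48 ± 0.23 SE, adjusted p = 0.000168). The last 2 bins of the gene, 10 kb apart, had 38 and 36 counts against 159 and 124 (log2 change 1.56 ± 0.22 SE, adjusted p = 4.07e-05). At chr1:171510001-171580000, 4 contacts rose by 1.25 to 1.59 in the stretch from Itln1, which encodes a sugar-binding lectin, to Cd244a, a receptor of natural killer cells. The contact of 50 kb from a bin in Itln1 to a bin in Cd244a had 12 and 20 counts in MEFs and 61 and 64 in ES cells. The others had an end in the bin at 171540001, which lies in neither gene. The one with the most counts joined that bin to the next, with the start of Cd244a, and had 42 and 32 counts in MEFs and 116 and 143 in ES cells. At chr4:62500001-62520000 the contact of neighbouring bins in Hdhd3 and Alad, the latter encoding an enzyme of heme synthesis, had 57 and 53 counts in MEFs and 156 and 166 in ES cells (log2 change 1.16 ± 0.20 SE, adjusted p = 0.000923). The other 5 lay on chromosomes 7, 8, 11 and 18 and rose by 1.09 to 1.53. They joined bins at 1600014C10Rik, Sf3b3 to Cog4, the body of Myo19 and, with 2 contacts, the body of Ccdc192. Those of Sf3b3 to Cog4, on chromosome 8, and Myo19, on chromosome 11, lie where ES replicate 1 stood apart.

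Of the contacts lower in ES cells, each locus gave 1. The contact that fell most joined the body of Polr1a, which encodes the largest subunit of RNA polymerase I, to a bin 240 kb away on chr6:71920001-72170000. It had 47 and 35 counts in MEFs and 17 and 19 in ES cells (log2 change -1.57 ± 0.28 SE, adjusted p = 0.00247). The contact between Rd3, a photoreceptor gene, and the bin with the start of Traf5, a signalling adaptor of the TNF receptor family, at chr1:191960001-192100000, had 32 and 31 counts in MEFs and 13 and 15 in ES cells (log2 change -1.55 ± 0.29 SE, adjusted p = 0.00667). That contact was listed for H3K27ac in MEFs, with 19 and 35 counts, and not in ES cells. The contact that ends in Pde10a, a cyclic nucleotide phosphodiesterase gene, at chr17:8460001-8600000 had 44 and 42 counts against 17 and 22 (log2 change -1.52 ± 0.27 SE, adjusted p = 0.00245). In all 3 the MEF libraries were above both ES libraries by a wide margin.

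The longest of the 40 ran over 450 kb on chr9:30480001-30940000, ending 10 kb from the bin with the start of Adamts8, which encodes a secreted metalloprotease. It had 38 and 30 counts in MEFs and 14 and 19 in ES cells (log2 change -1.43 ± 0.29 SE, adjusted p = 0.0208). With offsets by distance step, where the longest distances shared 1 step, its log2 change was -1.10 and it was no longer called. At chr2:35210001-35280000 a contact that ends in Gsn, which encodes the actin-severing protein gelsolin, had 40 and 45 counts against 23 and 22 (log2 change -1.30 ± 0.27 SE, adjusted p = 0.0215) and was listed for H3K27ac in MEFs, with 27 and 37 counts, and not in ES cells. A contact of 160 kb from the body of Ablim1, an actin-binding LIM protein gene on chromosome 19, to a bin just beyond its start had 41 and 42 counts against 23 and 23. A contact of 250 kb from Rgs5, a regulator of G protein signalling known from pericytes, had 25 and 38 against 16 and 16 (adjusted p = 0.0491). A contact of 120 kb joined the bodies of Ptprr and Ptprb, 2 receptor tyrosine phosphatase genes, with 33 and 25 counts against 13 and 15. A contact of 310 kb on chromosome 3 that ends near Mab21l3, 1 of 70 kb that ends in Galnt15, 1 of 110 kb from Cabin1 to Mif, and 1 of 60 kb that ends in Gpr157 fell by 1.30 to 1.38. Only 2 of the 14 spanned 10 kb, at the Ugt1a cluster of glucuronosyltransferase genes, with 181 and 245 counts against 160 and 161, and near Hsd17b10 on chromosome X, with 39 and 24 against 13 and 16.

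Of the 26 contacts higher in ES cells, 13 were in the MEF and 9 in the ES H3K27ac list, and of the 14 lower 2 were in the MEF list and 0 in the ES list. Of all tested interactions 16.1% were in the MEF and 17.2% in the ES H3K27ac list. The 1 locus from Pdia5 to Sema5b gave 11 of the 26, and most of the higher contacts in either H3K27ac list were among these 11. Neighbouring bin pairs of 1 locus are not independent, so the numbers do not show an enrichment of H3K27ac contacts.

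To ask which bins gained or lost contact as a whole, the counts of all common interactions of a bin were summed. Of 73677 bins tested, 38 were called (0.0516%), 33 higher (0.0448%) and 5 lower (0.00679%) in ES cells. The 33 formed 21 runs of adjacent bins, and 9 of them held the start of a protein-coding gene. The bin of Pdia5 had 56 and 70 counts in MEFs and 200 and 223 in ES cells (log2 change 1.38 ± 0.14 SE, adjusted p = 0.000209 by edgeR), and its 3 listed contacts in MEFs stood beside 24 in ES cells. The bin of Sema5b had 277 and 314 counts against 658 and 723 (log2 change 0.86 ± 0.10 SE, adjusted p = 0.000901), with 12 listed contacts against 32. The bin of Hdhd3 had 142 and 122 against 330 and 340 (log2 change 0.98 ± 0.12 SE), that of Cd244a 86 and 80 against 191 and 255 (1.06 ± 0.13 SE), and that of Tmem267 57 and 67 against 179 and 182 (1.18 ± 0.15 SE). In each of these bins the libraries of the 2 cell types were far apart. At chr16:35470001-35560000 the 7 called bins were adjacent or nearly so, and all rose.

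The bin of Necab2, which encodes a neuronal calcium-binding protein, and that of Slc38a8, an amino acid transporter gene, rose by 0.67 and 0.58, and both lie on chromosome 8. So do 9 of the 33, and 1 lies on chromosome 11. Stxbp2, an exocytosis gene also on chromosome 8, had 203 and 214 counts against 432 and 408 and was just beyond the threshold (adjusted p = 0.0565).

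Of the bins called lower, 2 hold the start of a coding gene. The bin of Col27a1, a fibrillar collagen gene, had 186 and 188 counts in MEFs and 140 and 153 in ES cells (log2 change -0.72 ± 0.12 SE, adjusted p = 0.0294). It had 14 listed Hi-C contacts in MEFs and 7 in ES cells, and 5 listed H3K27ac contacts in MEFs and 0 in ES cells. The bin of Trpm8, the cold-sensing ion channel gene, had 744 and 769 counts against 640 and 617 (log2 change -0.62 ± 0.10 SE, adjusted p = 0.0324), with no listed H3K27ac contact in either cell type. Neither pair of groups overlapped. Among the 3 called bins without a coding gene start, the bin at chromosome 2 position 27770001, between Rxra and Col5a1, had 108 and 116 counts against 77 and 77 (log2 change -0.90 ± 0.15 SE), and 15 listed H3K27ac contacts in MEFs against 0 in ES cells. The next gene bins, none past the threshold, held the starts of Ptk2b, a focal adhesion kinase gene (log2 change -0.73, adjusted p = 0.0525), Ugt1a1 (-0.56), Mroh2a (-0.53), Ephb3, an ephrin receptor gene (-0.54), Traf5 (-0.68), Chrna1, a muscle acetylcholine receptor gene (-1.19), Ccdc190 (-1.05) and Abtb2 (-0.53).

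**Figure D5:**
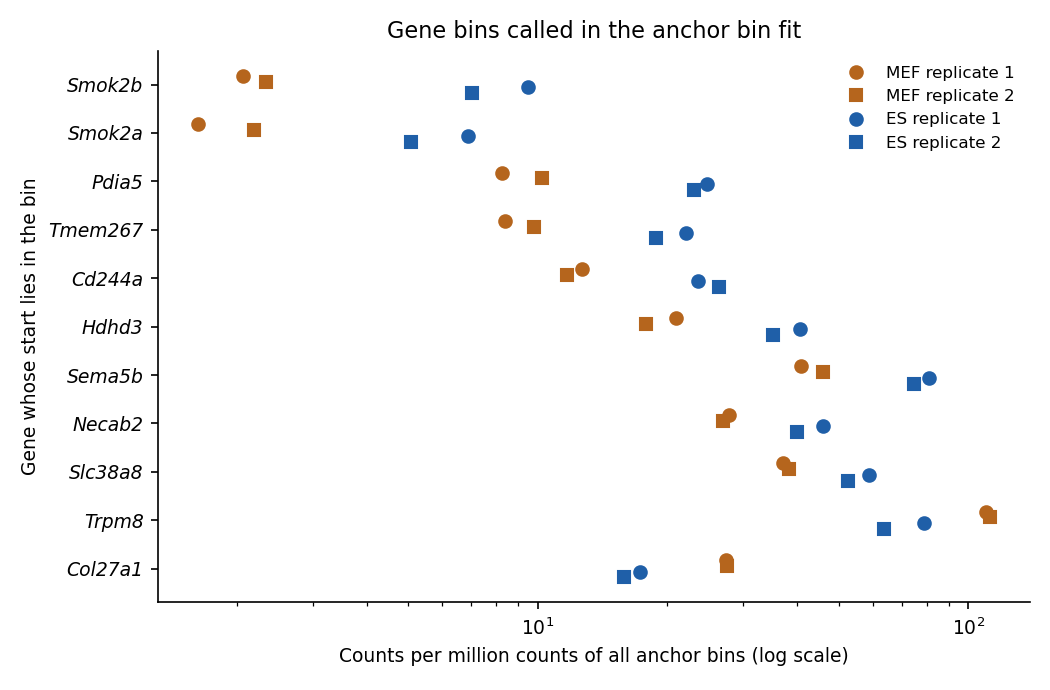
Counts of common interactions as CPM, scaled to the total of all anchor bins in a library (log scale), per library, for the 11 bins with the start of a protein-coding gene that passed the threshold, ordered by log2 fold change; circles are replicate 1 and squares replicate 2. The MEF and ES libraries are separate in each bin, with ES above MEF in the upper 9 and below it for Trpm8 and Col27a1. The bins of Smok2a and Smok2b each hold 1 common interaction.

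The number of bins called rested on single libraries more than that of interactions. Without MEF replicate 1 there were 8, without MEF replicate 2 13, without ES replicate 1 304 (192 higher and 112 lower), and without ES replicate 2 3074 (2706 higher and 368 lower), so ES replicate 1 alone against the MEFs gave the most. Without chromosomes 8 and 11 there were 112 higher and 65 lower, scaling chromosome by chromosome gave 84 higher and 70 lower (8 and 7 on chromosomes 8 and 11), and DESeq2 17 higher and 0 lower. The share of calls that were higher was 86.8% in the fit as made and 54.5% with chromosomes scaled apart.

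Contacts of 100 kb or more were summed separately, to see the ends of long loops. Of 10989 bins tested, 67 were called (0.61%), 28 higher (0.255%) and 39 lower (0.355%) in ES cells. The common dispersion, the replicate spread estimated beyond counting noise, was 9.77e-05 here, against 0.00266 for interactions and 0.00284 for sums of all contacts. The share called may therefore not be comparable with that of the other fits. The 28 formed 22 runs of adjacent bins, and 16 of them were on chromosomes 8 and 11. None of the 39 was on those chromosomes. With offsets by chromosome 22 were higher and 45 lower, and on chromosomes 8 and 11 they were 3 and 9. No 2 of the 39 were adjacent. Several were the 2 ends of 1 contact: Rgs5 and its partner 250 kb away, Rd3 and Traf5, the ends on chromosome 17 at Pde10a, and the ends on chromosome 9 near Adamts8. A further pair of lower bins lay 120 kb apart on chromosome 2, 1 of them in Col5a1, which encodes a chain of fibrillar collagen V. No contact between these bins was called in the test of single interactions. The Col5a1 bin, at position 27890001, had 59 and 47 counts of long contacts in MEFs and 32 and 33 in ES cells (log2 change -0.98 ± 0.20 SE, adjusted p = 0.0258), and the other bin of the pair 86 and 89 against 60 and 59 (-0.83 ± 0.16 SE, adjusted p = 0.0180). Gene starts among the lower bins were Ptk2b, with 82 and 90 counts against 58 and 62 (log2 change -0.79 ± 0.15 SE, adjusted p = 0.0213), Traf5, with 105 and 112 against 58 and 93 (-0.80 ± 0.16 SE, adjusted p = 0.0231), and Lgr6, an R-spondin receptor of skin stem cells, with 127 and 133 against 91 and 109 (-0.65 ± 0.14 SE, adjusted p = 0.0365). The groups did not overlap in any of these. Rab3b (-0.75) and Chrna1 (-1.10) came next and missed the threshold (adjusted p = 0.0588 each).

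Of the 28 higher bins, 4 hold a coding gene start: Smok2b (log2 change 1.99 ± 0.23 SE, from 14 and 16 to 77 and 68), Smok2a (1.73 ± 0.27 SE), Tmem267 (1.48 ± 0.18 SE, from 43 and 50 to 164 and 148) and Zfp90, a zinc finger repressor gene on chromosome 8 (0.70 ± 0.15 SE, from 71 and 73 to 139 and 143). The Smok2b and Smok2a sums each hold 1 contact, the one already called above, so they are not separate results. Rph3al, on chromosome 11, had a log2 change of 1.11 (adjusted p = 0.0588). Of the lower bins 43.6% had more listed H3K27ac contacts in MEFs and 17.9% more in ES cells, of the higher bins 10.7% and 35.7%, and of all tested 28.4% and 27.3%. Bins that are adjacent or end the same contact are not independent, and 16 of the 28 higher bins lie on chromosomes 8 and 11. These shares therefore do not show that the changes follow H3K27ac. Without MEF replicate 1 no bin was called by edgeR, with 701 at an unadjusted p under 0.05, without MEF replicate 2 5 were, without ES replicate 2 160 (110 higher and 50 lower) and without ES replicate 1 81 (32 higher and 49 lower). DESeq2 called 5 higher and 0 lower. The authors' scaling gave 18 higher and 108 lower, and without chromosomes 8 and 11 there were 15 and 37.

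A bin can lose long contacts while keeping short ones. That was tested as the change of its contacts of 100 kb or more relative to its contacts under 50 kb, in a fit that keeps each library as a block, over 8075 bins. It called 4 bins (0.0495%), all with relatively fewer long contacts in ES cells, and 0 in the other direction. The bin in Polr1a had 170 and 138 short counts in MEFs and 195 and 218 in ES cells, but 47 and 35 long counts against 17 and 19 (log2 change of the ratio -1.54 ± 0.21 SE, adjusted p = 0.0121). Its long counts are those of 1 contact, the one called above, so its fall is not a separate result. The bin in Cabin1, a calcineurin-binding protein gene on chromosome 10, had 131 and 146 short counts against 192 and 224, and 63 and 61 long counts against 28 and 39 (-1.40 ± 0.18 SE, adjusted p = 0.0121). The bin in Dcaf5 on chromosome 12 changed by -1.06 ± 0.17 SE, with 18 listed H3K27ac contacts in MEFs and 1 in ES cells, and the bin at chromosome 14 position 76070001 by -1.05 ± 0.14 SE. In these bins the raw short counts were higher in ES cells and the raw long counts lower. The ES libraries were deeper, so the higher raw short counts do not by themselves show more short contact in ES cells. The gene bins with the smallest p-values, none called, were Rab3b (-0.89), Lgr6 (-0.71), Nfkbia, an inhibitor of NF-kappa-B (-1.12), Col6a2 (-1.10, adjusted p = 0.187) and Hbegf, a growth factor gene (-0.84), and in the other direction Ablim1 (0.80), Gm3336 (0.99), Prss32 (0.85), Rph3al (0.83) and Qrich2 (0.55). Without ES replicate 2 none was called by edgeR, with 404 at an unadjusted p under 0.05, without ES replicate 1 1, without MEF replicate 1 2 and without MEF replicate 2 7.

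None of the bins of the 9 gene lists passed the edgeR test in the sums of all contacts, where 11 of 8613 tested bins with a coding gene start did, or in the sums of long contacts, where 7 of 1490 did. At an unadjusted p under 0.05, 2 of the pluripotency bins were lower and 0 higher, and 2 of the fibroblast bins were lower and 2 higher. The pluripotency factors, which hold ES cells undifferentiated, had a median log2 change of 0.01 over 13 tested bins (range -0.31 to 0.58), the fibroblast and mesenchymal genes -0.0031 over 11 (-0.33 to 0.40), the mesenchymal transcription factors -0.10 over 9, the AP-1 genes, early-response factors, -0.01 over 8, the Hox genes 0.03 over 21, the Polycomb-bound developmental genes 0.07 over 16, the chromatin loop and architecture genes 0.17 over 8, the ribosomal protein genes 0.09 over 18 and the imprinted genes -0.07 over 8. Over all coding gene bins it was 0.05. Only bins with a common interaction enter, and 15 of the 28 pluripotency bins had too few or none.

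Among the pluripotency factors the bins with the most counts were those of Fgf4, a growth factor of ES cells, with 289 and 286 counts in MEFs and 291 and 348 in ES cells (log2 change -0.21 ± 0.10 SE), Dnmt3l, a cofactor of DNA methylation, with 267 and 258 against 254 and 301 (-0.29 ± 0.10 SE), and Esrrb, a naive pluripotency factor, with 170 and 175 against 169 and 214 (-0.22 ± 0.11 SE). Their adjusted p-values were 0.585, 0.407 and 0.650. Among fibroblast genes they were Col6a1 (-0.22 ± 0.10 SE), Col6a2 (-0.15 ± 0.10 SE) and Col5a1 (-0.33 ± 0.11 SE), which encode collagen VI and V chains. For contacts of 100 kb or more, the start bin of Col5a1 had 59 and 64 counts in MEFs and 47 and 47 in ES cells (log2 change -0.66 ± 0.17 SE, adjusted p = 0.0660) and that of Col6a2 31 and 27 against 19 and 16 (-0.997 ± 0.278 SE, adjusted p = 0.0981), neither past the threshold. Among mesenchymal factors Nfix, on chromosome 8, had 309 and 298 counts against 521 and 529 (0.43 ± 0.10 SE, adjusted p = 0.210), Snai1 a log2 change of -0.28 and Cebpb -0.10. In the other lists the bins with the most counts were Batf3 (-0.19), Fos (-0.11) and Junb (0.20) for AP-1, Hoxc5 (0.05), Hoxc4 (0.03) and Hoxb13 (0.45), Pax2 (0.05), Barx1 (-0.18) and Dlx1 (0.11) for the Polycomb-bound genes, Top2a (0.56), Stag2 (-0.03) and Smc1a (0.06) for the architecture genes, Rpl13a (0.06), Rplp0 (-0.06) and Rps18 (0.25), and Mirg (-0.20), Airn (-0.07) and Igf2r (-0.06) for the imprinted genes. Hoxb13 and Top2a lie on chromosome 11 and Nfix and Junb on chromosome 8, where ES replicate 1 stood apart.

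The lists also give the number of contacts at each gene. Over all bins with a coding gene start the lists held 47461 contact ends in MEFs and 83859 in ES cells, and 53.3% of the bins had more in ES cells. The ribosomal protein genes, a housekeeping reference, had 69 in MEFs and 145 in ES cells, with more in ES cells in 20 of 29 bins. The pluripotency bins had 66 and 119, with more in ES cells in 17 of 28 and more in MEFs in 4. Pou5f1 had 0 in MEFs and 5 in ES cells, Sox2 0 and 3, Klf5 0 and 4, Tbx3 0 and 6 and Mycn 2 and 7, and Tet1, Tet2, Otx2 and Zfp42 had none in either list. The 4 with more in MEFs were Klf4 at 1 and 0, Lin28a at 7 and 5, Fgf4 at 11 and 10 and Lefty1 at 5 and 3. Polycomb-bound developmental genes had 70 and 160, with more in ES cells in 23 of 39 bins (59.0%), more in MEFs in 6 and equal numbers in 10. Among them were Pax7 at 3 and 17, Olig2 at 3 and 14, Dlx2 at 1 and 12 and Zic2 at 0 and 6, and in the other direction Foxa1 at 4 and 2 and Sox9 at 2 and 0. The mesenchymal transcription factors were the only one of the 9 lists with more in MEFs, 82 against 72, where 11 of 21 bins had more in MEFs and 5 more in ES cells. Runx1 had 8 in MEFs and 2 in ES cells, Tead1 8 and 2, Smad3 10 and 6 and Prrx1 3 and 1. In the other direction were Cebpb at 7 and 13, Tead3 at 5 and 9, Snai1 at 9 and 12, Nfix at 10 and 11 and Tbx15 at 0 and 1. Among the fibroblast genes, with 113 and 137, 13 of 22 bins had more in ES cells and 8 more in MEFs. Cav1, which encodes a protein of membrane caveolae, had 12 and 1, Vim, the mesenchymal intermediate filament gene, 4 and 0, Col1a2 5 and 1 and Acta2, smooth muscle actin, 2 and 0, while S100a4 had 4 and 17, Pdgfrb, a growth factor receptor gene, 6 and 13 and Loxl1, a collagen cross-linking enzyme gene, 3 and 9. The genes of this paragraph were named after their values were seen, and the numbers carry no test, since a list has no value per library for an absent contact.

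Among contacts of the MEF list alone, the strongest between 100 and 190 kb included the contact of the Col6a2 bin with the Col6a1 bin, whose promoters are given above. These neighbouring genes encode 2 chains of collagen VI. The contact spanned 100 kb, chr10:76620001-76730000, with 44 and 28 counts in the MEF libraries. The ES list held no interaction of the same bins but held 1 within 1 bin at each end, and the MEF H3K27ac list held 1 within 1 bin where the ES H3K27ac list held none. The other leading ones lay near Kcnj15 (30 and 43 counts) and from Alpk2 towards Malt1 (37 and 31). Between 200 and 490 kb they started in Sv2b, a synaptic vesicle gene (41 and 50), near Syce1l (27 and 43) and in Kbtbd12 (30 and 39). All 6 had an ES interaction within 1 bin.

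Between 500 and 990 kb the strongest MEF-only contact joined the bin of Enc1, an actin-binding protein gene, to the body of Arhgef28 over 690 kb at chr13:97240001-97940000, with 35 and 21 counts. The next ran over 550 kb from near Stard4 (23 and 33) and over 520 kb to Mmp17, a matrix metalloprotease gene (28 and 28). At 1000 kb or more they ran over 1030 kb from a bin next to Plk2, a polo-like kinase gene, towards Gpbp1 (31 and 25), over 1150 kb on chromosome 18 (17 and 25), and over 1310 kb to Marchf1 (17 and 25). None of these 6 had an ES Hi-C interaction within 1 bin, and none had an H3K27ac contact of either cell type within 1 bin.

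Taking all 635 MEF-only contacts of 500 kb or more, 45 had an ES Hi-C interaction within 1 bin, 72 a MEF H3K27ac contact and 8 an ES H3K27ac contact. Of the 48 ES-only contacts of that length, 7 had a MEF H3K27ac contact within 1 bin and 2 an ES H3K27ac contact. More neighbours in the MEF H3K27ac list were thus not particular to the MEF-only contacts. The 635 lay on all 20 chromosomes. Their mean counts ranged from 5 to 28 with a median of 14.5. Of their 916 end bins 68 held a coding gene start (7.42%), against 9.66% of all bins in either list. Some bins ended several of them. A bin near Kctd3 on chromosome 1 ended 9, more than any other bin, the bin of Foxo1, a forkhead factor of insulin signalling, 7, the bin of Plk2 4 and a bin near Tbx3, a T-box gene, 4. The Foxo1 bin had 7 listed Hi-C contacts in MEFs, all of them such long ones, and 1 in ES cells, with no H3K27ac contact in either.

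Of the contacts of the ES list alone, the leading ones at 100 to 190 kb all lay around Cwc22, a splicing factor gene on chromosome 2, with 274 and 95, 229 and 105, and 188 and 88 counts in ES replicates 1 and 2, so replicate 1 had over 2 times the counts of the deeper replicate 2. Between 200 and 490 kb they lay next to Pck1, a gluconeogenesis gene (32 and 39), near Nfasc (22 and 45) and from Sulf2, a heparan sulfatase gene (29 and 38). Between 500 and 990 kb the leading 2 joined a bin near Zfp987 to bins 610 and 620 kb away on chromosome 4, a stretch of repeated zinc finger genes, with 45 and 43 and with 24 and 47 counts, and the next joined the Sp110 and Sp140 cluster to A530032D15Rik (16 and 23). The only ES contact of 1000 kb or more spanned 1960 kb on the same part of chromosome 4 (14 and 16). Repeated genes of that kind share sequence, and reads placed in the wrong copy were not tested for. Of the 48 ES-only contacts of 500 kb or more, 21 lay on chromosome X, against 40 of the 635 of the MEF list.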

How the data were processed

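Per the submitters' processing notes the genome was mm10 and Bowtie2 2.2.3 was used. The caller of interactions is not given in the sources used here. Per the file headers, each deposited Hi-C list gives for every pair of 10 kb bins the raw count of each library, a signal named CPM, and a p-value and FDR for the list. The deposited signal is the count divided by a constant per chromosome and library, at least 15 wherever listed, and every deposited p-value is under 0.01. The H3K27ac HiChIP lists give raw counts likewise, and the authors' gene names per bin came from 2 further deposited lists. Distances run from bin start to bin start. Interactions in both lists, and sums of their counts per bin, were tested on the deposited counts with edgeR 4.0.16 (filterByExpr, TMM, quasi-likelihood, R 4.3.3). DESeq2 1.42.0 was an alternative. Coding genes were placed by RefSeq promoters (17273), by lying whole in 1 bin (876) or by the authors' names at a gene end (1704), and 1774 were not placed. Named were all called interactions up to 40, the 10 gene bins of smallest p per direction (5 in the other bin fits), the 3 members of each list with most counts, and the 3 strongest list-only contacts per class of 100 kb or more. Genes named beyond this rule were chosen after their values were seen. The members and lists were chosen with earlier results of these data known. Contacts within a bin, domains and CTCF motifs at the ends were not analysed here. Tables used pandas 2.3.3 and scipy 1.17.1 in Python 3.11.15.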

Additional observations from a re-analysis of the deposited data

How the results depend on the processing

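The call counts of the 3 edgeR fits moved with most settings, while none of the named calls changed direction in the settings run. For interactions (40 calls), DESeq2 gave 0, the authors' scaling 61, only those of 50 kb or more 7, and a deposited FDR under 0.1 in either list 25, while count sums without TMM, distance offsets, no filter, leaving out chromosome X, chromosome offsets and leaving out chromosomes 8 and 11 stayed within 1.5 times. Leaving out 1 library gave 3 to 113. For anchor bins (38), DESeq2 gave 17, the authors' scaling 346, chromosome offsets 154, leaving out chromosomes 8 and 11 177, and leaving out 1 library 8 to 3074. For bins of long contacts (67), DESeq2 gave 5, count sums without TMM 101, the authors' scaling 126, no filter 14, and leaving out 1 library 0 to 160. For long against short contacts (4), distances under 30 kb against 200 kb or more gave 1, and leaving out 1 library 0 to 7. Beyond fewer features or libraries tested, the cause was not tested. Chromosome offsets for interactions and leaving out chromosomes 8 and 11 were chosen after seeing the data. The replicate block gave 74 interactions, 248 bins and 196 bins of long contacts. The replicate numbers were not taken as pairs in the main fits. Same-numbered libraries deviated together with a correlation of -0.00064 over interactions and -0.01 over bins. At these counts most of the difference between replicates is counting noise, so the correlations cannot exclude a pairing.

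Counting all listed interactions, the ES minus MEF difference in share of counts, in percentage points from the shortest class up, was -8.64, 6.57, 2.80 (reversed against the common interactions, at -0.26), -0.56 and -0.15. For the common interactions each class kept its direction without each library, without chromosome X and without chromosomes 8 and 11, but the difference at 10 to 40 kb moved from -0.33 to -0.18 without ES replicate 1 and to -0.20 without chromosomes 8 and 11. The share of MEF interactions in the ES list, in the same 5 classes, was 86.6%, 83.2%, 79.5%, 56.8% and 12.5% with each end free by 1 bin, 56.3%, 38.6%, 25.4%, 11.8% and 1.93% with lists of equal length, 38.4%, 29.8%, 28.3% and 21.9% in the first 4 with a deposited FDR under 0.1, and 61.1%, 61.2%, 56.4%, 32.9% and 7.85% with at least 15 counts in both libraries of a list, a floor chosen after seeing the data.

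The tests cover interactions in both lists only. With 2 libraries per cell type and median counts of 24 to 36, an interaction that was not called may still have changed.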

Other observations

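The Hox clusters, whose genes pattern the body axis and are held silent by Polycomb in ES cells, had some contacts in both lists and others in 1 list alone. Such non-overlap is common. Of all MEF interactions 60.8% at 10 to 40 kb and 51.1% at 50 to 90 kb were also in the ES list. Of all ES interactions 52.8% and 28.6% were also in the MEF list. In the Hoxb cluster the bins of Hoxb8, Hoxb5 and Hoxb2 contacted each other in the ES list alone, over 20 to 70 kb, with 48 and 62, 27 and 24, and 43 and 38 counts. That cluster lies on chromosome 11, where ES replicate 1 stood apart. In the Hoxc cluster the MEF list alone joined the bins of Hoxc13, Hoxc12 and Hoxc11 (41 and 43, 17 and 28, and 31 and 36 counts), while the ES list alone joined Hoxc11 with Hoxc9 (30 and 53), Hoxc10 with Hoxc5 (16 and 25) and Hoxc9 with Hoxc5 (22 and 39). The Hoxc5 and Hoxc4 contact was in both, with 33 and 35 counts in MEFs and 53 and 34 in ES cells (log2 change -0.03 ± 0.25 SE). Of the 4 Hoxa contacts in both lists none was called, with log2 changes from -0.30 to 0.12. The bins of Dlx1 and Dlx2, homeobox genes of forebrain and limb, contacted each other in the ES list alone (40 and 58), as did those of the imprinted genes Dlk1 and Meg3 over 90 kb (15 and 16). The AP-1 genes Batf3 and Atf3 contacted each other over 90 kb in the MEF list alone (14 and 17). These pairs were picked after their values were seen and carry no test, and neighbouring Hox genes can share a bin.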
